A study of Homo sapiens with 8 samples.

Results

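The genes described here are 38 genes of the endoplasmic reticulum (ER), chosen by symbol, that fold proteins, destroy misfolded ones or signal the unfolded protein response. They fall into 18 chaperones and folding enzymes, 11 genes of ER-associated degradation, 5 stress sensors and transcription factors and 4 genes of protein entry into the ER. All 38 were listed among the 17927 genes of the RNA-seq table and 37 among the 14019 genes of the Ribo-seq table. The cells were SH-SY5Y, an established human neuroblastoma line, carrying either a short hairpin RNA against RPS29 (shRPS29), a protein of the small ribosomal subunit, or a control hairpin (shCONT). RNA-seq measured total RNA and Ribo-seq measured RNA fragments protected by ribosomes, with 2 libraries of each hairpin in each assay. The time after the hairpin was introduced, the number of hairpins and clones, and whether replicates were separate cultures were not given in the sources used here, so p-values measure the spread between these libraries, which may be technical.

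Proteins that enter the secretory pathway are threaded into the ER through the SEC61 channel and are folded there by chaperones such as BiP (HSPA5), GRP94 (HSP90B1), calreticulin and calnexin, and by the protein disulfide isomerases. When unfolded protein builds up, the sensors IRE1 (ERN1), PERK (EIF2AK3) and ATF6 respond. IRE1 splices the XBP1 mRNA, ATF6 is cut to release a transcription factor, and PERK slows translation and favours synthesis of ATF4. XBP1 and ATF6 are known to raise chaperone and degradation genes, in part through the ER stress response element (ERSE), while ATF4 raises the stress factor CHOP (DDIT3).

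Promoter sequences of the members were searched for exact matches to these elements. They are given first because 5 of the 7 members with ERSE fell in RNA, while CANX and CRELD2 were not called by edgeR. RefSeq promoter windows on GRCh38.p14 (250 bases before to 50 after each listed start) were matched for 33 of the 38 members, in 40 windows. The search covered both strands for ERSE (CCAAT and CCACG with any 9 bases between), for ERSE-II (ATTGG and CCACG with any 1 base between) and for the unfolded protein response element UPRE (TGACGTGG). ERSE-II can lie beside a UPRE, and in HYOU1 a pair of such matches overlapped. ERSE was found in 7 of the 33 matched members and in 25 of all 27305 genes in the table (0.0916%). By window it was found in 27 of 35116 (0.0769%). ERSE-II was found in 3 members against 0.0696% of all genes (0.0541% of windows), and UPRE in 3 members against 0.927% of all genes (0.729% of windows). The elements and the members were both chosen for a known place in the unfolded protein response. These shares therefore describe the members and are not a test. The ERSE members were 6 folding genes (CALR, CANX, CRELD2, HSP90B1, HSPA5 and PDIA6) and XBP1. None of the 9 degradation and 3 translocation genes with a window held an exact match to it. No window was matched for FKBP14, PDIA3, DERL1, DERL3 and SPCS1. ERSE-II was found in HYOU1, SDF2L1 and HERPUD1, and UPRE in HYOU1, DNAJC10 and VCP. The 250 bases before the start are printed 5′ to 3′ on the strand of the gene, with the matched elements in capitals. They are given for 4 of the 5 members with ERSE whose RNA fell, a choice made by outcome. The windows are chr9:125241344-125241593 (minus strand) for HSPA5, chr12:103930160-103930409 (plus) for HSP90B1, chr19:12938359-12938608 (plus) for CALR and chr22:28800570-28800819 (minus) for XBP1.
HSPA5: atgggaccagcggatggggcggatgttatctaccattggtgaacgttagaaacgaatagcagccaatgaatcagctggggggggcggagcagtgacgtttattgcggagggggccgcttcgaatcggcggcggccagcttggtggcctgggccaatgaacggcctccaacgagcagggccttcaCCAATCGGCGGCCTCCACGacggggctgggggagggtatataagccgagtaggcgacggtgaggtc
HSP90B1: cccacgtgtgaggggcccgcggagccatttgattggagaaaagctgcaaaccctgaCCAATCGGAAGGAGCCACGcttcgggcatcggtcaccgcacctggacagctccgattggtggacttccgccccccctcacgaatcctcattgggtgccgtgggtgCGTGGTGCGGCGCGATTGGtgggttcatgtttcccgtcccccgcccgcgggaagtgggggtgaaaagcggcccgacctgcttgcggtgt
CALR: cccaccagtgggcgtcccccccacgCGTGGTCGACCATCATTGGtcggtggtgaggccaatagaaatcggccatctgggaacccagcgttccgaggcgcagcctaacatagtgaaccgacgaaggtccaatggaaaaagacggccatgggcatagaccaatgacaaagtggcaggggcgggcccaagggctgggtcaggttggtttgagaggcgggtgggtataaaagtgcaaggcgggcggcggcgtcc
XBP1: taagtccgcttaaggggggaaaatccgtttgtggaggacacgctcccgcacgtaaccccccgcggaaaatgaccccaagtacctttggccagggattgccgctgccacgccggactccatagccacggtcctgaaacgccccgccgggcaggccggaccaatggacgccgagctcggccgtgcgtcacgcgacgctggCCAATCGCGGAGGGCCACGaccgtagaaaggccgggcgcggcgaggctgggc
HSP90B1 held 2 matches in opposite orientations, and the match in CALR was in the reverse orientation. A match describes letters in this window and does not show binding. Inexact copies of the elements were not sought, so a member without a match may still hold an inexact copy.

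Total counts ran from 17539104 to 19156104 per RNA-seq library and from 2630463 to 4375971 per Ribo-seq library. RPS29 RNA was at 137 and 160.1 CPM (counts scaled to library size) in the control libraries and 7.53 and 6.46 CPM in the knockdown (log2 fold change -4.40, SE 0.115, edgeR adjusted p = 6.32e-12). Of 11 markers of noradrenergic neuroblastoma, 10 passed the count filter, while the defining enzyme TH had at most 4 counts in a library. In RNA-seq, blood markers had at most 15 counts and epithelial markers at most 48, and in Ribo-seq at most 172 and 35. Of the fibroblast markers COL3A1 had between 3465 and 4885 counts and was higher in the knockdown, as was LUM, while DCN had at most 21 and PDGFRA, with 494 to 537, overlapped between groups (log2 fold change -0.10, edgeR adjusted p = 0.508). Ribo-seq libraries resembled each other less than RNA-seq libraries did, with Spearman correlations across tested genes of 0.342 to 0.806 against 0.983 to 0.996, and the control libraries differed most from knockdown replicate 1.

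In RNA, a minority of the ER chaperones and folding enzymes fell in the knockdown, BiP, GRP94 and calreticulin among them, while 3 degradation genes and the sensor IRE1 rose. Of the 37 members that passed the count filter, 11 fell and 6 rose at an edgeR adjusted p below 0.05. Among all 14723 genes tested 16.3% fell and 14.4% rose, so the share of members that fell (29.7%) was above that background and the share that rose (16.2%) was close to it. These shares are not at equal precision, as the median SE was 0.082 for members and 0.108 over all genes tested. The members were also chosen with earlier results of these data known. Of the folding genes 7 of 18 fell and 1 rose, with a median log2 fold change of -0.18 against 0.01 over all genes tested. Of the degradation genes 3 of 10 rose and 1 fell, with a median of -0.04. Of the sensors and transcription factors 3 of 5 fell and 1 rose (median -0.24), and of the translocation genes 1 of 4 rose and 0 fell by edgeR (median 0.12), with 1 lower at an unadjusted p below 0.05 and 0 lower by DESeq2 or limma-voom. The difference between roles was not tested. DERL3, a derlin, was the member left out by the filter, with 0 and 2 counts in control cells and 1 and 1 in the knockdown. Leaving out control replicate 1 reduced the members called to 6 lower and 3 higher, and leaving out control replicate 2 reduced those lower to 7. Calls over all genes were then fewer as well, at 1517 lower and 1225 higher and at 1496 lower and 1238 higher.

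**Figure D1:**
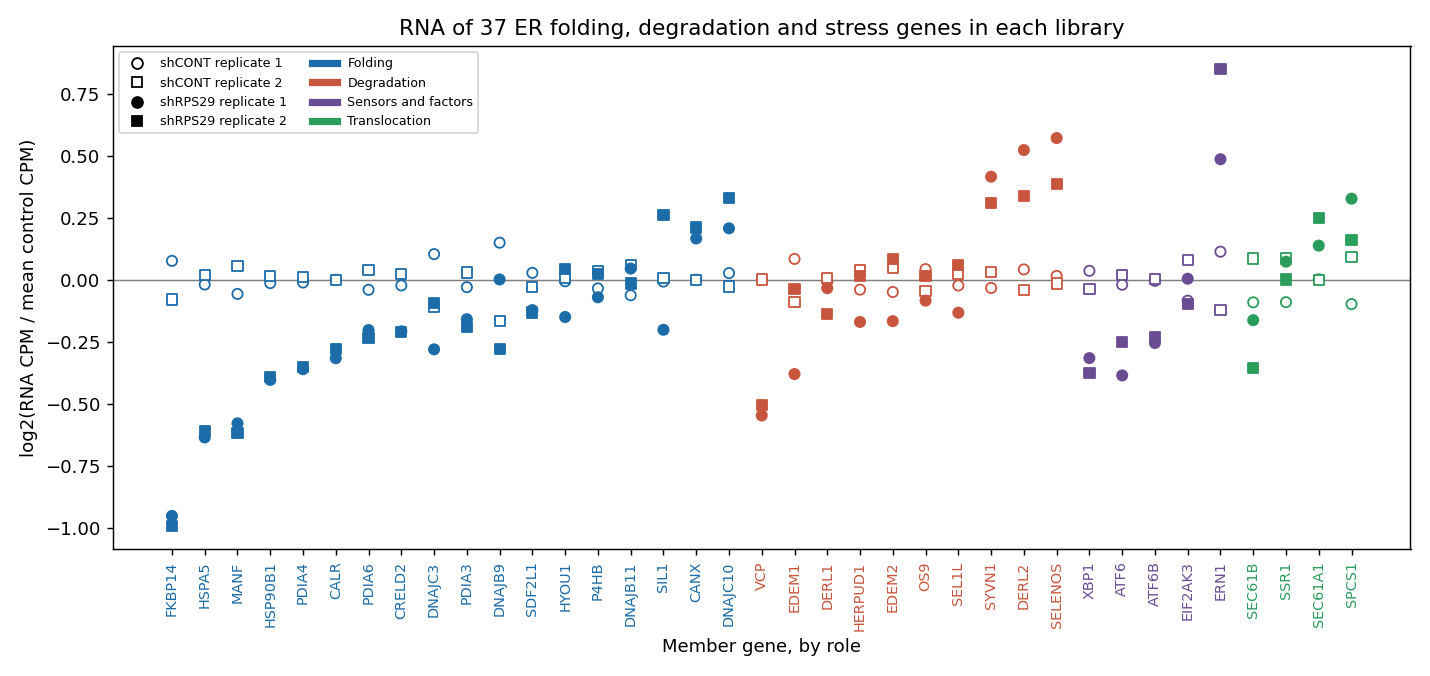
RNA level of the 37 tested members in each library, as log2 of CPM over the mean of the 2 control libraries, ordered by role and fold change. Open symbols are control and filled symbols knockdown libraries. FKBP14, HSPA5 and MANF lie lowest on the folding side, and SYVN1, DERL2, SELENOS and ERN1 lie above their controls in both knockdown libraries.

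The BiP gene HSPA5, which encodes the main HSP70 chaperone of the ER and a restraint on all 3 sensors, was at 533 and 547 CPM in control cells and 347 and 354 CPM in the knockdown. Both knockdown libraries were below both controls, a decrease of 35.1% (log2 fold change -0.62, SE 0.0702, adjusted p = 1.50e-05 by edgeR's quasi-likelihood test). FKBP14, a prolyl isomerase that acts on collagens, changed most among the members. Its RNA was at 38.9 and 34.9 CPM in control cells and 19.1 and 18.5 CPM in the knockdown (log2 fold change -0.97, SE 0.105, edgeR adjusted p = 1.10e-05), with no overlap between groups. An antisense gene, FKBP14-AS1, overlaps FKBP14. MANF, a secreted factor that binds BiP, was at 68.6 and 74.1 CPM in control cells and at 47.8 and 46.5 CPM in the knockdown, which is 33.9% lower (-0.60, SE 0.0819, edgeR adjusted p = 8.17e-05). For HSPA5, FKBP14 and MANF the call was kept in each of the 10 alternatives run.

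GRP94, the HSP90 of the ER (HSP90B1), fell from 611 and 623 CPM to 466 and 470.4 CPM, a decrease of 24.1% (log2 fold change -0.40, SE 0.0707, edgeR adjusted p = 6.61e-04). Calreticulin (CALR), a lectin chaperone that also holds calcium, was at 787 and 787 CPM in control cells and 632 and 648 CPM in the knockdown (-0.30, SE 0.0722, adjusted p = 0.00594). PDIA4, a disulfide isomerase, was at 312 and 317 CPM against 245 and 246 CPM (-0.36, adjusted p = 0.00114), and PDIA6, another isomerase, at 561 and 593 CPM against 502 and 491 CPM (-0.22, adjusted p = 0.0319). In each of these genes both knockdown libraries lay below both controls. The calls of CALR and PDIA6 ended without either control library, with adjusted p of up to 0.165 and 0.440 over the alternatives, and that of PDIA6 also with a replicate block (adjusted p = 0.128).

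The other folding genes were not called lower. Calnexin (CANX), the membrane-bound partner of calreticulin, was at 571 and 571 CPM in control cells and 641 and 661 CPM in the knockdown. Both were above both controls, but CANX was not called by edgeR (log2 fold change 0.19, adjusted p = 0.0588). DNAJC10, a reductase that works with BiP in clearing misfolded proteins, was the folding gene that edgeR called higher, from 106 and 102 CPM to 119.9 and 131 CPM (0.27, SE 0.0752, adjusted p = 0.0136). Its call ended without either control library. DESeq2 and limma-voom each called 2 folding genes higher, and CANX had the largest increase of the folding genes after DNAJC10. P4HB, the founding protein disulfide isomerase, was at 561 and 589 CPM against 547 and 584 CPM, so that the groups overlapped (-0.02, edgeR adjusted p = 0.843). HYOU1 (-0.05), an exchange factor of BiP, and DNAJB11 (0.02), a cochaperone of BiP, likewise overlapped between groups. PDIA3 (-0.17), CRELD2 (-0.21) and SDF2L1 (-0.13) lay below both controls in both knockdown libraries without being called. DNAJB9 (-0.13), DNAJC3 (-0.19) and SIL1 (0.04) overlapped, and the 18 folding genes ranged from -0.97 to 0.27. In 10 of the 18 both knockdown libraries lay below both controls and in 2 above both, against 32.9% and 32.3% of all genes tested.

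The 7 members with ERSE had a median RNA log2 fold change of -0.30, and 5 of them fell (HSPA5, HSP90B1, CALR, PDIA6 and XBP1), where 16.3% of all genes did. The calls of CALR, PDIA6 and XBP1 ended without control replicate 1, and those of CALR and PDIA6 without control replicate 2. CRELD2 was at -0.21 (edgeR adjusted p = 0.0895) and CANX was at 0.19. None of the 3 members with ERSE-II was called, with HERPUD1 at -0.08, HYOU1 at -0.05 and SDF2L1 at -0.13. Of the 18 other promoter-table genes with ERSE, 9 were tested in RNA-seq, with a median of -0.05. Among them FICD, which adds AMP to BiP, was higher (0.83, adjusted p = 0.0412), SYNPO was lower (-0.38, adjusted p = 0.00237), and SERP1, a protein of the translocation site, was at 0.05 (adjusted p = 0.629). No difference between genes with and without the element was tested.

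ER-associated degradation moves misfolded proteins back to the cytosol for the proteasome. SYVN1, the ubiquitin ligase HRD1 at the centre of the channel, was at 50.4 and 52.8 CPM in control cells and 68.8 and 64.0 CPM in the knockdown (log2 fold change 0.36, SE 0.082, edgeR adjusted p = 0.00359). DERL2, a derlin that sits beside that ligase, was at 45.1 and 42.5 CPM in control cells and 62.9 and 55.3 CPM in the knockdown (0.43, SE 0.0893, adjusted p = 0.00198). SELENOS, a selenoprotein that ties the derlins to VCP, was at 48.3 and 47.3 CPM against 71.0 and 62.4 CPM (0.48, SE 0.0868, adjusted p = 7.27e-04). In all 3 genes both knockdown libraries were above both controls. The calls of DERL2 and SELENOS were kept in all 10 alternatives, and that of SYVN1 ended without control replicate 1 (adjusted p = 0.0634). SYVN1 overlaps MRPL49 and DERL2 overlaps MIS12 in the annotation, and whether counting used strand is not given.

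VCP, the ATPase that pulls substrates out of the ER membrane and serves many other pathways, moved the other way. It was at 555 and 555 CPM in control cells and 379.9 and 392 CPM in the knockdown, a decrease of 30.5% (log2 fold change -0.53, SE 0.0703, edgeR adjusted p = 6.75e-05) kept in all 10 alternatives. The lectins and mannosidases that pick substrates were not called. EDEM1 was at -0.20 and EDEM2 at -0.04, both trimming mannose, and OS9, which reads the trimmed glycan, was at -0.03. SEL1L (-0.03), the partner of SYVN1, and HERPUD1 (-0.08), a stress-induced organiser of the complex, overlapped between groups. DERL1 was at -0.08 with both knockdown libraries below both controls.

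Among sensors and transcription factors, ERN1, the kinase and RNase IRE1, was at 15.2 and 12.9 CPM in control cells and 19.6 and 25.3 CPM in the knockdown. Both knockdown libraries were above both controls (log2 fold change 0.68, SE 0.142, edgeR adjusted p = 0.00223), and the call was kept in all 10 alternatives with values from 0.49 to 0.85. XBP1, whose mRNA IRE1 splices, was at 87.6 and 83.3 CPM in control cells and 68.6 and 65.8 CPM in the knockdown (-0.35, SE 0.0775, adjusted p = 0.00353). Counts per gene do not tell spliced from unspliced XBP1. ATF6 was at 66.9 and 68.8 CPM against 51.9 and 57.0 CPM (-0.32, SE 0.0823, adjusted p = 0.00901), and its relative ATF6B at 49.0 and 49.3 CPM against 41.2 and 41.9 CPM (-0.24, SE 0.0837, adjusted p = 0.0387). For XBP1, ATF6 and ATF6B both knockdown libraries were below both controls. The XBP1 call ended without control replicate 1 (adjusted p = 0.0741) and those of ATF6 and ATF6B without either control replicate, so that the count of 3 lower became 0 without control replicate 1 and 1 without control replicate 2. The ATF6B call also ended with DESeq2 (adjusted p = 0.113) and with a replicate block (adjusted p = 0.0785). PERK RNA (EIF2AK3) was at 23.3 and 26.1 CPM against 24.8 and 23.1 CPM, with overlapping groups (-0.05, adjusted p = 0.795).

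Of the translocation genes, SPCS1, a subunit of the signal peptidase, rose from 87.7 and 100.05 CPM to 118 and 105 CPM (log2 fold change 0.25, SE 0.086, edgeR adjusted p = 0.0421), and the call ended without control replicate 1 or knockdown replicate 1, with DESeq2 (adjusted p = 0.0666) and with a replicate block (adjusted p = 0.0809). SEC61A1, the pore of the channel, was at 372 and 371 CPM in control cells and 409 and 441 CPM in the knockdown (0.19, adjusted p = 0.0542). SEC61B, a small subunit of the same channel, was at 51.3 and 58.0 CPM against 48.8 and 42.7 CPM (-0.25, adjusted p = 0.0523). The subunits lay on opposite sides of their controls, and neither was called by the main edgeR fit. With limma-voom, and with edgeR and a filter of at least 50 counts, 2 translocation genes were called higher. SEC61A1 had the largest increase of these genes after SPCS1. SEC61B was called lower without knockdown replicate 1 (-0.36, adjusted p = 8.89e-04) and with a filter of at least 50 counts (adjusted p = 0.0466). SSR1, of the translocon-associated complex, was at 0.04 with overlapping groups.

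**Figure D2:**
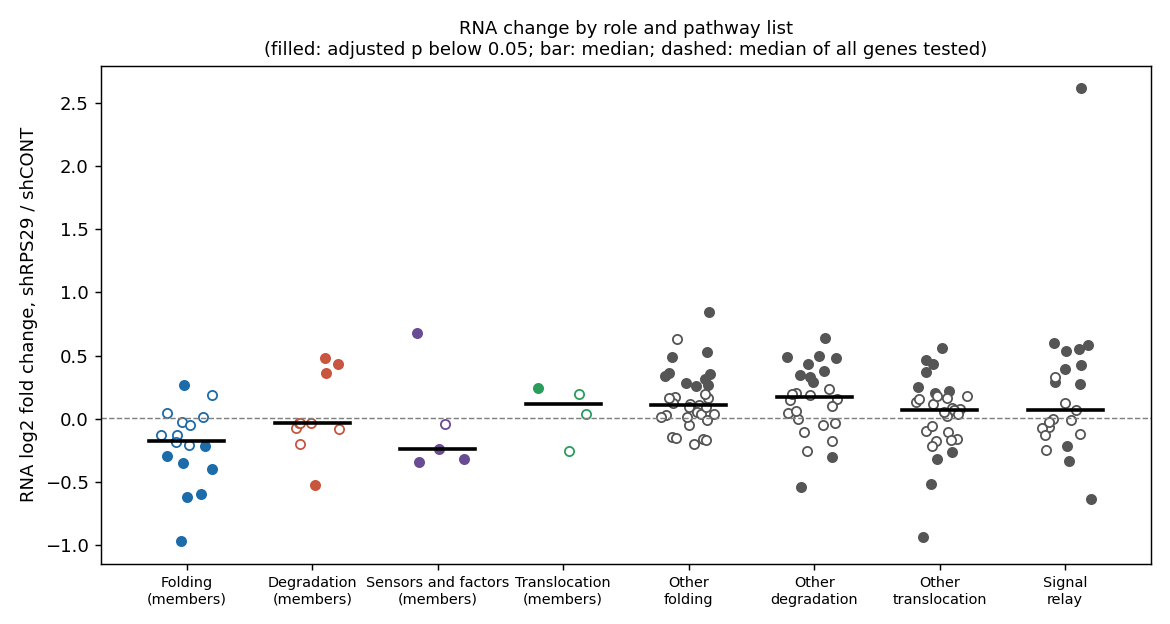
RNA log2 fold change (shRPS29 over shCONT) of the tested members by role and of 4 lists of other ER genes. Filled points had an edgeR adjusted p below 0.05, bars are medians and the dashed line is the median of all genes tested. Called folding members lie mostly below the line, while the called genes of the other folding list all lie above it.

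Other genes of the same pathways gave a different count. Of 34 other folding genes 10 rose and 0 fell by edgeR, with 1 lower at an unadjusted p below 0.05 and 0 lower by DESeq2 or limma-voom, and their median log2 fold change was 0.11. TMX3, a membrane-bound disulfide isomerase, was at 0.52 (SE 0.0777), DNAJC1, a membrane cochaperone of BiP, at 0.85 (SE 0.135) and TXNDC5, a lumenal isomerase, at 0.34 (SE 0.0692). Of 26 other degradation genes 9 rose and 2 fell (median 0.17). TMUB1, a membrane protein of the degradation complexes, was at 0.64 (SE 0.0745) and the ubiquitin-conjugating enzyme UBE2J2 at 0.49, while the proteasome shuttle RAD23B was at -0.54 (SE 0.0698) and the ligase MARCHF6 at -0.30. Leaving out control replicate 1 or 2 left 5 or 4 other folding genes called higher, and leaving out knockdown replicate 1 gave 3 called lower. Of the other degradation genes 6 were called higher when control replicate 1 was left out, and 14 when knockdown replicate 1 was.

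Of 30 other translocation and glycosylation genes 7 rose and 4 fell (median 0.07). The signal peptidase paralogs moved apart, with SEC11C rising from 31.6 and 32.2 CPM to 47.4 and 46.7 CPM (log2 fold change 0.56, SE 0.0884, edgeR adjusted p = 2.60e-04) and SEC11A falling from 182 and 195 CPM to 141 and 123 CPM (-0.52, SE 0.0807, adjusted p = 2.42e-04). SRPRA (0.37) and SRPRB (0.47), the receptor of the signal recognition particle, rose. TRAM1, which lies beside the channel, fell from 63.6 and 64.7 CPM to 35.5 and 31.2 CPM (-0.94, SE 0.089, adjusted p = 3.32e-06), and OST4 (-0.32), a small subunit of oligosaccharyltransferase, fell too. Of this list 2 genes were called lower when control replicate 2 was left out and 8 when knockdown replicate 1 was. Called higher were 4 when either control replicate was left out and 12 when knockdown replicate 2 was.

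Of 23 tested genes that relay the stress signal 9 rose and 3 fell (median 0.07). CHOP RNA (DDIT3), the transcription factor downstream of PERK and ATF4, was at 2.20 and 2.40 CPM in control cells and 14.8 and 13.5 CPM in the knockdown (log2 fold change 2.62, SE 0.194, edgeR adjusted p = 3.74e-07). DDIT3 was not listed in the Ribo-seq table. YOD1, a deubiquitinase that works with VCP, was at 0.60 (SE 0.0984) and DDRGK1, of ER ufmylation, at 0.53 (SE 0.0874). The membrane-bound factors CREB3L4 (-0.64) and CREB3L2 (-0.34) and the ER membrane protein TMBIM6 (-0.22) fell. ATF4, which PERK activity favours, was at 105 and 103 CPM against 138 and 113 CPM (0.27, edgeR adjusted p = 0.0298), and PPP1R15A, a phosphatase subunit that reverses the translational arm, at 0.55 (adjusted p = 4.29e-04). Of this list 1 gene was called lower when control replicate 2 was left out, and 6 higher when either control replicate was. CHOP rose in the same libraries in which HSPA5 and HSP90B1 fell and PERK RNA was not called.

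Footprints of 29 of the 36 tested members were lower in the knockdown by their fold change, but none passed the test. By fold change alone, 5775 of all 11853 genes tested were lower. Over all 11853 genes tested in Ribo-seq 0.607% were called lower and 7.96% higher, and of the members 0 were called in either direction by edgeR. At an unadjusted p below 0.05, 7 members were lower and 0 higher, namely HSPA5, CALR, PDIA4, PDIA6, CRELD2, SYVN1 and SPCS1. Of all 11853 genes 771 were lower and 1964 higher at that threshold. DESeq2 called HSPA5 and PDIA6 lower and limma-voom called HSPA5. Over all genes DESeq2 called 171 of 11393 lower and limma-voom 171 of 11853. The median log2 fold change was -0.90 for 17 folding genes, -0.40 for 10 degradation genes, -0.30 for 5 sensors and factors and -0.78 for 4 translocation genes, against 0.04 over all genes tested. Among genes at least 10 times above the background expected from gene span, 9 folding genes had a median of -0.37 and 2 translocation genes one of -0.46. Scaling was recomputed within those 1300 genes, so these medians are not on the same scale as those above. The standard error of a member was large, with a median of 0.62. SDF2L1, with 3 to 10 counts in a library, did not pass the filter.

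Footprints of HSPA5 numbered 782 and 945 counts in control cells and 158 and 334 in the knockdown, or 233 and 287 CPM against 65.7 and 83.8 CPM. Both knockdown libraries were below both controls (log2 fold change -1.80, SE 0.565, edgeR adjusted p = 0.0581). The adjusted p ranged from 0.00506 with DESeq2 to 0.548 over the alternatives, and the log2 fold change from -2.06 to -1.47. Calreticulin was at 256 and 353 CPM in control cells and 87.3 and 151 CPM in the knockdown (-1.35, SE 0.585, adjusted p = 0.172). PDIA6 was at 382 and 389 CPM against 122 and 182 CPM (-1.34, SE 0.584, adjusted p = 0.174). GRP94 footprints, in contrast, were at 113 and 134 CPM against 109 and 98.6 CPM, which is just below both controls (-0.25, SE 0.533, adjusted p = 0.834). SPCS1 was at 199.9 and 262 CPM against 81.9 and 99.8 CPM (-1.35, adjusted p = 0.152), and SYVN1 at 92.8 and 83.7 CPM against 27.4 and 44.4 CPM (-1.29, adjusted p = 0.163). The RNA of SPCS1 and SYVN1 was called higher by edgeR, for SPCS1 in 6 of 10 alternatives and for SYVN1 in 9.

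**Figure D3:**
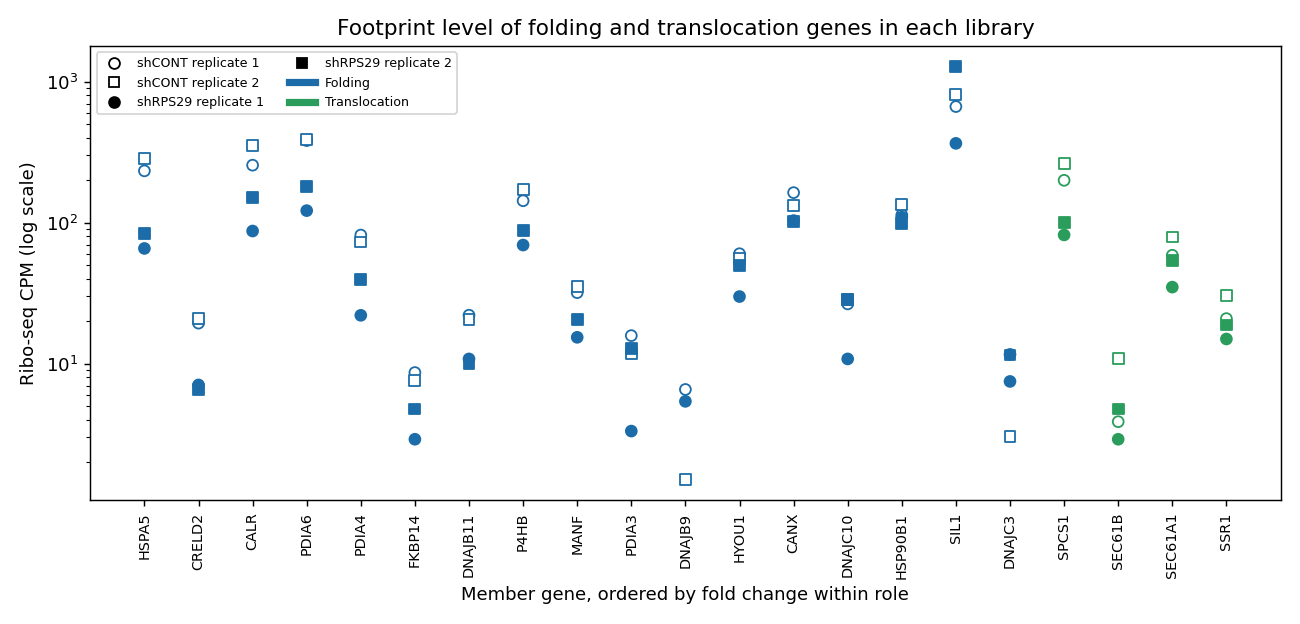
Ribo-seq CPM (log scale) of tested folding and translocation genes in each library, ordered by fold change within role. Open symbols are control and filled symbols knockdown libraries, and DNAJB9 in knockdown replicate 2, at 0 counts, is not drawn. The filled symbols of HSPA5, CRELD2, CALR, PDIA6 and PDIA4 lie below both open ones, while those of SIL1 lie on either side.

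Both knockdown libraries lay below both controls for 21 of the 36 members (58.3%) and above them for 2 (5.56%), SEL1L and ERN1, against 26.7% and 29.0% of all genes tested. Footprint change went with RNA level across all genes, so members were also set beside genes of like RNA level, in bins chosen after the data were seen. Among 856 genes over 200 RNA CPM the median footprint log2 fold change was -0.79, and the 11 members in that range had a median of -0.85. For 64.1% of those 856 genes, and for 10 of the 11 members, both knockdown libraries were below both controls. Among 3877 genes at 50 to 200 CPM the median was -0.36, and for 14 members it was -0.75. Among 4368 genes at 10 to 50 CPM it was 0.13, and for 11 members -0.30. HSPA5, at -1.80, was the lowest of the 11 members over 200 CPM, where the lower quartile of all genes was -1.21.

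**Figure D4:**
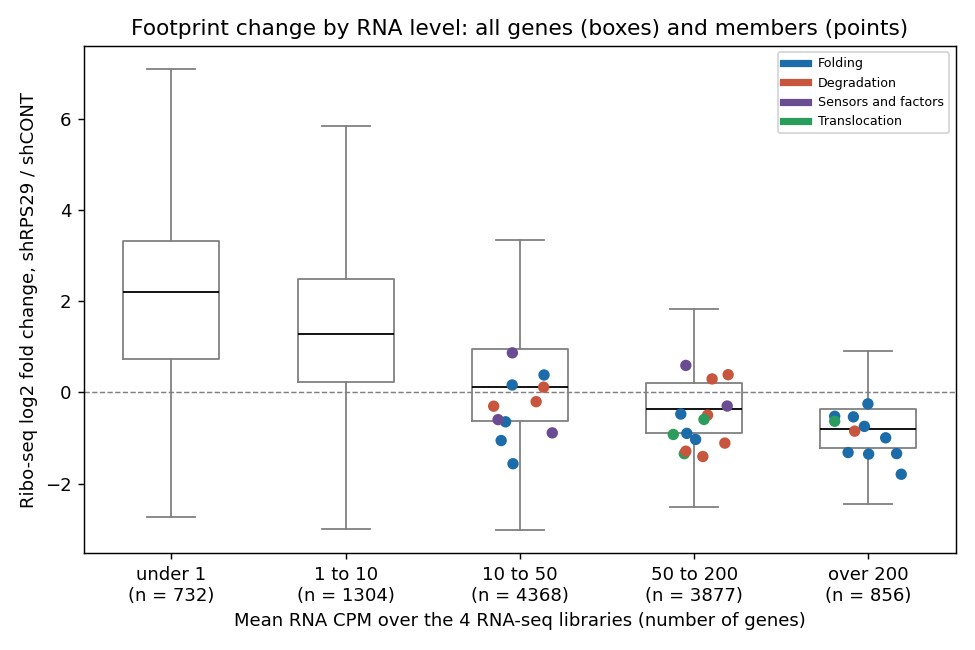
Ribo-seq log2 fold change (shRPS29 over shCONT) of all genes by mean RNA CPM, as boxes of the quartiles with whiskers to 1.5 times the interquartile range, and of the members as points coloured by role. The boxes shift downwards with RNA level, from a median of 2.21 under 1 CPM to -0.79 over 200 CPM, and all members lie within the whiskers.

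For some members the footprint counts were near the background expected from gene span, taken from the median counts per kilobase of 976 genes with under 1 RNA CPM. ERN1, spanning 91.0 kb, had 13 and 25 counts in control cells and 25 and 42 in the knockdown, where 31.6 and 23.8 were expected from span. XBP1, spanning 6.01 kb, had 10 and 20 counts against 7 and 42, where 2.08 and 1.57 were expected in the knockdown. The groups of XBP1 overlapped (log2 fold change 0.59, SE 0.996, edgeR adjusted p = 0.785). EIF2AK3 had 16 and 35 counts in the knockdown, where 24.8 and 18.6 were expected, and ATF6 72 and 63, where 68.6 and 51.6 were expected. FKBP14 had 7 and 19 counts in the knockdown, where 7.21 and 5.43 were expected (log2 fold change -1.06, SE 0.928, edgeR adjusted p = 0.548). In knockdown replicate 1 counts were also below the expected ones for PDIA3 (8 against 9.31), DERL1 (8 against 10.1) and DNAJC10 (26 against 27.1). The same held for DNAJC3 (18 against 40.9). In knockdown replicate 2 FKBP14, PDIA3, DERL1, DNAJC10 and DNAJC3 were above the expected counts. The part of this background in the fold changes was not tested. For HSPA5, CALR and SPCS1 the expected background was at most 1.43% of the counts in any library.

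**Figure D5:**
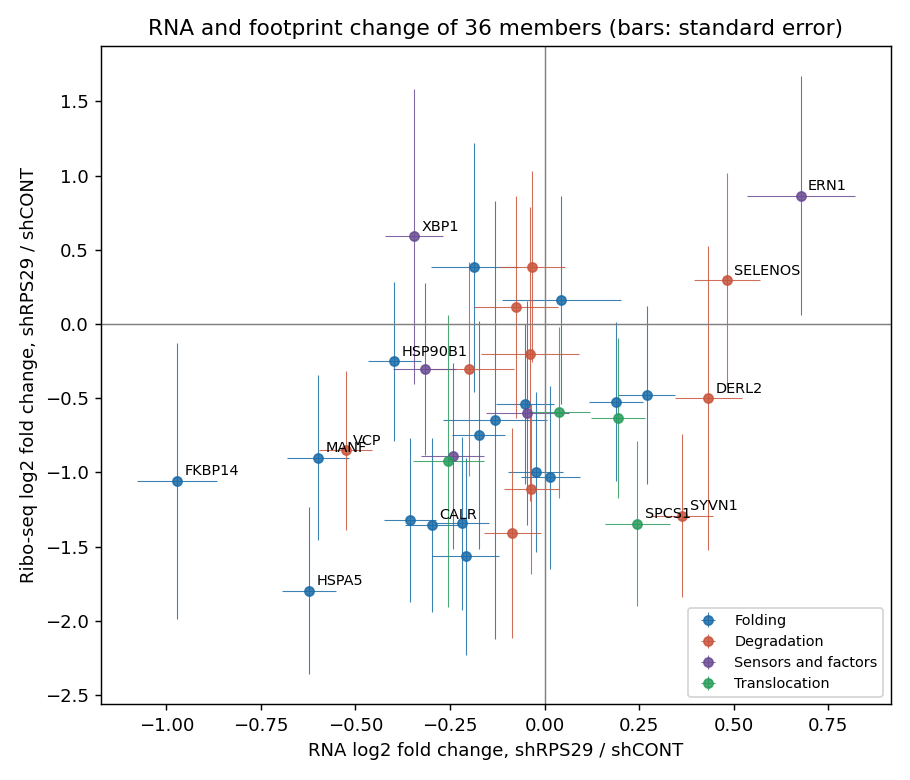
RNA log2 fold change against Ribo-seq log2 fold change (both shRPS29 over shCONT) for the 36 members tested in both assays, with standard errors as bars and colours by role. HSPA5, FKBP14, MANF and VCP lie low on both axes, whereas SYVN1 and SPCS1 lie above 0 in RNA and below 0 in footprints.

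Footprints per RNA, the ratio of Ribo-seq to RNA-seq CPM, had a median of 0.281 in the controls over 10648 genes, with quartiles of 0.164 and 0.529. Members spread widely around it. HSPA5 was at 0.438 and 0.524 in the control libraries and CALR at 0.325 and 0.449. PDIA3 was at 0.0426 and 0.0306, lower than all but 1.24% of genes, and annotated pseudogene copies (PDIA3P1 and PDIA3P2) can take or share its reads. XBP1 was at 0.0341 and 0.0728. SIL1, an exchange factor of BiP, was at 51.2 and 61.3, from 2235 and 2661 footprint counts on an RNA of 13.0 and 13.2 CPM. SIL1 spans 252 kb and holds a 5S ribosomal RNA pseudogene (RNA5SP194), and whether its counts come from coding exons was not tested.

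The change in this ratio was tested as the interaction of assay and hairpin over all 8 libraries. Of the 36 members 1 was called lower and 0 higher by edgeR, against 1.35% and 2.90% of 10648 genes. At an unadjusted p below 0.05, 9 members were lower and 0 higher, against 1370 and 1467 of all genes. DESeq2 called 7 members lower and 0 higher, against 814 and 968 of all genes. The member called by edgeR was SPCS1, at 2.28 and 2.62 footprints per RNA in control cells and 0.696 and 0.953 in the knockdown (log2 change -1.59, SE 0.341, edgeR adjusted p = 0.0446). This call was kept in 3 of 9 alternatives, with adjusted p from 5.32e-04 to 0.304, and ended without either control replicate or knockdown replicate 1. SPCS1 overlaps NEK4 in the annotation. SYVN1 went from 1.84 and 1.59 to 0.399 and 0.694 (-1.65, SE 0.381, adjusted p = 0.0527), and HSPA5 from 0.438 and 0.524 to 0.189 and 0.237 (-1.17, SE 0.344, adjusted p = 0.0812). Footprint change went with RNA level across all genes, and for this ratio members were not set beside genes of like RNA level. By role the medians were -0.71 for folding, -0.26 for degradation, 0.00 for sensors and factors and -0.73 for translocation, against -0.06 over all genes tested. Over the fits that leave out 1 library these ran from -0.997 to -0.54, from -0.68 to -0.19, from -0.39 to 0.20 and from -1.22 to -0.51. The other lists of the pathway had medians of -0.46 for folding, -0.71 for degradation, -0.81 for translocation and -0.57 for signal relay, with 5, 1, 2 and 0 genes called lower by edgeR and 0, 1, 0 and 0 called higher. DESeq2 called 8, 4, 6 and 1 lower and 2, 1, 0 and 0 higher. No gene of these 4 lists was called without knockdown replicate 1, without either control replicate or with a replicate block.

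Of the other pathway genes edgeR called DNAJC1 and MARCHF6 in Ribo-seq, both higher, and 0 lower, with 5 folding, 1 degradation, 6 translocation and 2 signal relay genes lower at an unadjusted p below 0.05. DESeq2 called 1 other folding and 1 other translocation gene lower and 1 signal relay gene higher. The limma-voom fit called 2 other folding genes lower, and the replicate block 4 other folding and 3 other translocation genes. Over all genes tested these fits called 171, 171 and 397 lower in turn. The DNAJC1 call ended without knockdown replicate 1 or either control replicate, and that of MARCHF6 without control replicate 2. DNAJC1 had 16 and 13 counts in control cells and 110 and 79 in the knockdown, where 85.7 and 64.5 were expected from gene span (log2 fold change 2.89, edgeR adjusted p = 0.0135). MARCHF6 had 2288 and 1247 counts against 64007 and 34323 (5.05, adjusted p = 0.00861), while its RNA fell, and the gene holds a microRNA gene (MIR10397). The part of background or small RNA in these values was not tested.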

How the data were processed

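For each assay the authors deposited a table of counts, whole numbers by gene symbol that showed no sign of scaling. Build hg38 and the tools Trim Galore, Salmon, Bowtie2, STAR and featureCounts are named per the submitters' processing notes. The tool behind each table and the annotation were not given in the sources used here. Members were matched by symbol, and they, the roles, the lists and the rule for named genes were chosen with earlier results of these data known. By that rule all members are accounted for, with library values for called members, the 2 of each role with the smallest RNA p and all sensors, and up to 3 called genes per direction of each other list. A gene that this rule names is not reported here. FICD, SYNPO, SERP1, ATF4 and PPP1R15A lie outside this rule and were named after their values were seen.

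In R 4.3.3, edgeR 4.0.16 gave the quasi-likelihood test of these counts after TMM scaling, with filterByExpr and Benjamini-Hochberg adjustment over all genes tested, and calls at an adjusted p below 0.05. CPM uses the TMM factors. Standard errors are the absolute log2 fold change over the square root of F. Footprints per RNA were tested as an interaction with TMM factors within each assay. In a simulation with 200 changed genes the RNA test called 71.6% of 2-fold changes, and at 4-fold the Ribo-seq test called 1.52% and the interaction test 0%. Each test called more than 200 genes in the real counts, so these shares do not give the power in these data. Alternatives were RLE scaling, DESeq2 1.42.0, limma-voom (limma 3.58.1), other count filters, a replicate block and leaving out each library. Gene positions and promoters are from RefSeq (GRCh38.p14). Protein sequences were not used here, so protein ends and motifs were not described.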

Additional observations from a re-analysis of the deposited data

How the results depend on the processing

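RNA members higher numbered 3 to 8 and lower 6 to 14 over the fits that leave out 1 library each, and the folding median lay between -0.20 and -0.15 there. The degradation median in RNA changed sign, to 0.03, without knockdown replicate 1. PERK (EIF2AK3), not called, ranged from -0.13 to 0.039 over these fits and changed sign to 0.0078 without knockdown replicate 2 and 0.039 without control replicate 2. Ribo-seq members lower, 0 in the main analysis, numbered 2 with DESeq2 and 1 with limma-voom, and 0 with 1300 genes at least 10 times above the background expected from span. Members called in footprints per RNA, 1 in the main analysis, numbered 2 with RLE scaling, 7 with DESeq2, 0 with no filter, 0 with a mean of at least 50 counts in each group, and 0 to 7 leaving out 1 library. With that filter the Ribo-seq medians were -0.58 for folding, -0.82 for degradation, -0.32 for translocation and 0.07 for sensors and factors, with fewer members tested and scaling computed within 3213 genes. Leaving out 1 library, these medians lay between -1.23 and -0.73 (folding), -0.80 and -0.35 (degradation), -0.70 and -0.03 (sensors and factors) and -1.23 and -0.38 (translocation). RLE scaling moved the median of all genes by less than 0.1 on the log2 scale in both assays, and the Ribo-seq folding median was then -0.88 against -0.90. With scaling computed within the 1300 genes above background, that median was -0.37 over 9 folding genes, against -0.90 over 17 in the main fit. The Ribo-seq medians of members thus varied with the genes used for filter and scaling.

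The labels give the groups replicate numbers 1 and 2, but do not say that a number marks a shared culture or day. Deviations of same-numbered libraries correlated at -0.08 in RNA-seq and 0.11 in Ribo-seq across genes. With the number as a replicate block, 5 members were higher and 9 lower in RNA, 0 higher and 3 lower in Ribo-seq (HSPA5, CALR and PDIA4), and 0 called in footprints per RNA. Over all 11853 genes in Ribo-seq, calls with the block went from 944 to 1402 higher and from 72 to 397 lower. Over all genes in RNA the block called 1764 higher and 2048 lower. In the simulation the Ribo-seq test called 1.52% of 4-fold changes, but in the real counts the main fit called 944 genes higher and 72 lower. The simulated share thus does not give the power in these data. Why no member was called in Ribo-seq by the main fit was not tested.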
